A study of Aspergillus aculeatus with 24 samples.

Results

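Gene expression of strain BCC199 of the filamentous fungus Aspergillus aculeatus, grown on wheat bran and soybean, was compared between the later collection day and the earlier one. Of the 24 libraries of the study, 4 are from BCC199 in this medium: 2 of day 6, labelled A and B, and 2 of day 3, labelled A and B. They were chosen by their labelled strain, medium and day, without use of any measured value, and 2 libraries for each day are all there are in the series analysed. Mycelium was grown at 30 °C with aeration and collected after 144 hours (day 6) or 72 hours (day 3). Used beside them were the day 6 and day 3 libraries of strains BCC56535 and HUT2365 in wheat bran and soybean and those of BCC199 in glucose, with 2 libraries in each group. The design names a control and a cellulase-inducing condition without tying either to a medium, and no label gives an engineered allele or an added agent. The labels call A and B biological replicates without saying that they were separate cultures, and the p-values speak for the spread between these libraries, part of which may be technical.

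Filamentous fungi of the genus Aspergillus feed by secreting enzymes that break plant polysaccharides into sugars small enough to take up. In Aspergillus species, genes for such enzymes are switched on by sugars released from the polymer, with XlnR as a well known activator, and are held down by glucose through the repressor CreA. A culture on bran changes as it ages, since the fungus consumes the easily used sugars and the polymer in turn and the acidity and nitrogen of the medium can change. None of these quantities was measured here. The values are given by ID only, because 0 of the 8615 IDs matched an identifier in the RefSeq table of 11152 genes. The identity of the cultures could not be checked against marker genes for the same reason. No ID is assigned to a cellulase, a regulator or any pathway, and no sequence is shown.

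The 2 day 6 libraries held 23238355 and 22517932 reads, and the 2 day 3 libraries held 24189736 and 25893950 reads. Levels are given as normalized reads, which are reads divided by 1 factor per library and so comparable between libraries for 1 ID but not per length. On day 6, 217 IDs in library A and 235 in library B had 0 reads, against 245 in A and 222 in B on day 3. The standard deviation over IDs of the log2 difference between libraries A and B was 0.426 on day 6 and 0.33 on day 3. Over all 12 groups of the study this spread ran from 0.33 to 0.824, so both days of BCC199 lie toward the low end of it.

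Between the days, 682 IDs were higher on day 6 and 466 were lower, out of 8509 tested, at a Benjamini-Hochberg adjusted p under 0.05 in limma. Together these 1148 IDs were 13.5% of those tested, with 8.02% higher and 5.48% lower on day 6, and 2232 IDs had an unadjusted p under 0.05. The test used the log2 of the deposited value plus 1, with the spread estimated over all 12 groups. Among the IDs that rose, the median change was 1.53 on the log2 scale, and among those that fell it was -1.56. The median over all IDs tested was -0.0040. Of the risen IDs 517 changed by at least 2-fold, 214 by at least 4-fold and 34 by at least 16-fold on this scale. Of the fallen IDs 343, 161 and 25 passed the same folds. The smallest change that was called was 0.41 on the log2 scale.

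The number of calls rests on how the spread is estimated. With the 4 BCC199 libraries alone, 3295 IDs passed (1677 higher and 1618 lower), and with 1 weight for each group 3857 passed. Leaving out any 1 of the 4 libraries gave between 561 and 641 calls. In 3124 IDs both day 6 libraries lay above both day 3 libraries, and in 3235 they lay below. These non-overlapping IDs made up 74.7% of those tested, and all 1148 called IDs were among them. The calls are a minor portion of the IDs whose libraries separate by day. With 2 libraries against 2, a random order separates the days with a probability of 0.333, so an ID that separates need not have changed. In bulk mycelium, fewer cells of a type and less RNA per cell cannot be told apart.

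**Figure D1:**
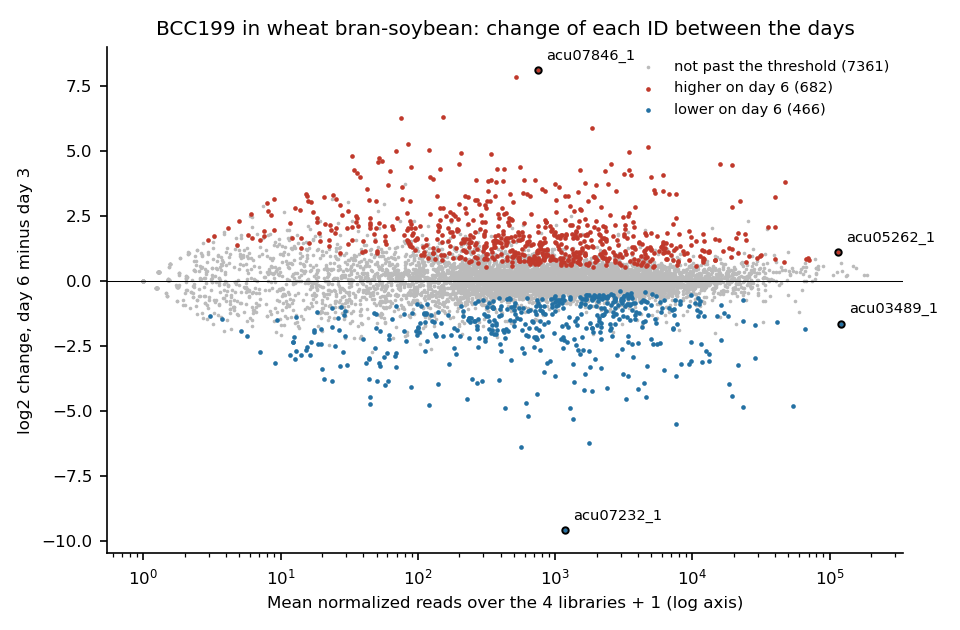
Log2 change of each of the 8509 tested IDs between day 6 and day 3 (vertical axis, positive where day 6 is higher) against its mean level in the 4 BCC199 wheat bran-soybean libraries (horizontal axis, log scale). The 682 IDs that rose and the 466 that fell are coloured, and called IDs appear at every level from low to high.

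Called IDs were found over the whole range of expression. Of the 514 IDs with a mean over 10000 normalized reads, 46 rose and 30 fell, which is 14.8% of that class. Between 1000 and 10000 normalized reads 12.9% of 3493 IDs were called, between 100 and 1000 it was 14.0% of 3091, and between 10 and 100 it was 18.1% of 922. Under 10 normalized reads 16 IDs rose and 7 fell among 489, or 4.70%. The class under 10 stood lowest, and there the median standard error of the log2 change was 0.62, against 0.23 in the class from 1000 to 10000.

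The most abundant IDs were largely held in common by the 2 days. Of the 10 IDs with the most normalized reads on day 6, 7 were also among the 10 of day 3, and 69 of the 100 highest were shared. Of the 100 highest on day 6, 20 had risen and 1 had fallen. Of the 100 highest on day 3, 6 rose and 12 fell. Over all IDs tested 8.02% rose and 5.48% fell. Each list is ranked by a day mean that also enters the test, which favours risen IDs on day 6 and fallen IDs on day 3. These counts are therefore a description. The 10 highest IDs took 6.15% and 6.19% of the reads of the day 6 libraries, against 5.60% and 5.21% of those of day 3. For the 100 highest the shares were 25.3% and 25.6% on day 6, against 23.3% and 22.2% on day 3, so both day 6 libraries were slightly more concentrated.

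IDs are named among those called, with a mean of at least 100 normalized reads on the higher day and no overlap between the libraries of the 2 days. Where a difference from another strain or from glucose is named, the BCC199 change had also passed in the same direction. IDs named for an earlier comparison were left out of the later ones. The largest rise was that of acu07846_1, which had 1527 and 1454 normalized reads on day 6, against 4.13 and 2.80 on day 3. Those day 3 values rest on 4 and 3 reads. The libraries of the 2 days lay far apart, and the log2 change was 8.10 with a standard error of 0.53 (limma adjusted p 6.1e-08). BCC56535 had 236 and 403 normalized reads of this ID on day 6, against 156 and 79.0 on day 3, and the change of BCC199 exceeded that of BCC56535 by 6.65 on the log2 scale (limma adjusted p 2.2e-05). In HUT2365 the ID had 0 and 0.914 normalized reads on day 6 and 0 in both libraries of day 3. BCC199 in glucose held between 13.4 and 48.6 normalized reads over its 4 libraries, which is more than in wheat bran-soybean on day 3 and far less than on day 6.

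Measured in normalized reads, the largest gain was that of acu05262_1, with 145782 and 166472 on day 6, against 76976 and 68355 on day 3. Both day 6 libraries lay above both day 3 libraries, and the log2 change was 1.10 with a standard error of 0.27 (limma adjusted p 0.011). The call was lost without library A of day 3 (adjusted p 0.051 in limma), without library B of day 3 (0.097) and without library B of day 6 (0.1), the highest of 17 alternatives, whose lowest was 4.9e-06. Quantile normalization gave a log2 change of 0.70. In glucose BCC199 held 46355 and 39540.2 normalized reads on day 6, against 35733 and 53504 on day 3, groups that overlap. HUT2365 in wheat bran-soybean held 61922 and 65539 on day 6, against 46726 and 63203 on day 3, which also overlap. The difference in log2 change was 1.13 from glucose (limma adjusted p 0.069) and 0.87 from HUT2365 (0.18), neither past the threshold. From BCC56535 it was 1.23 and passed (limma adjusted p 0.028).

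The largest fall was that of acu07232_1, which had 2.19 and 0 normalized reads on day 6, against 1671 and 3058 on day 3. It rested on 2 reads on day 6 and 4890 on day 3, a ratio of 2119 in favour of day 3 with a 95% exact binomial interval from 586 to 17500.2. The fitted log2 change was -9.61 with a standard error of 0.45 (limma adjusted p 1.4e-09). All 8 wheat bran-soybean libraries of BCC56535 and HUT2365 had 0 reads of it, and the 4 BCC199 glucose libraries had at most 2 reads each. High levels of this ID were therefore seen in the 2 day 3 libraries of BCC199 and in no other group set out here.

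The largest loss in normalized reads was that of acu03489_1, with 60399.9 and 55643 on day 6, against 193592 and 172741 on day 3. The log2 change was -1.66 with a standard error of 0.30 (limma adjusted p 0.0010), and the libraries of the 2 days were well apart. This ID stayed far above its glucose level, which was between 1621 and 2443 normalized reads over the 4 BCC199 glucose libraries. Day 6 of BCC56535 held 15983 and 6544 normalized reads, against 22984 and 24186 on day 3, also a fall (log2 change -1.20, limma adjusted p 0.0046). The difference between the falls of the 2 strains was -0.45 with a standard error of 0.42 and was not past the threshold (limma adjusted p 0.47).

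**Figure D2:**
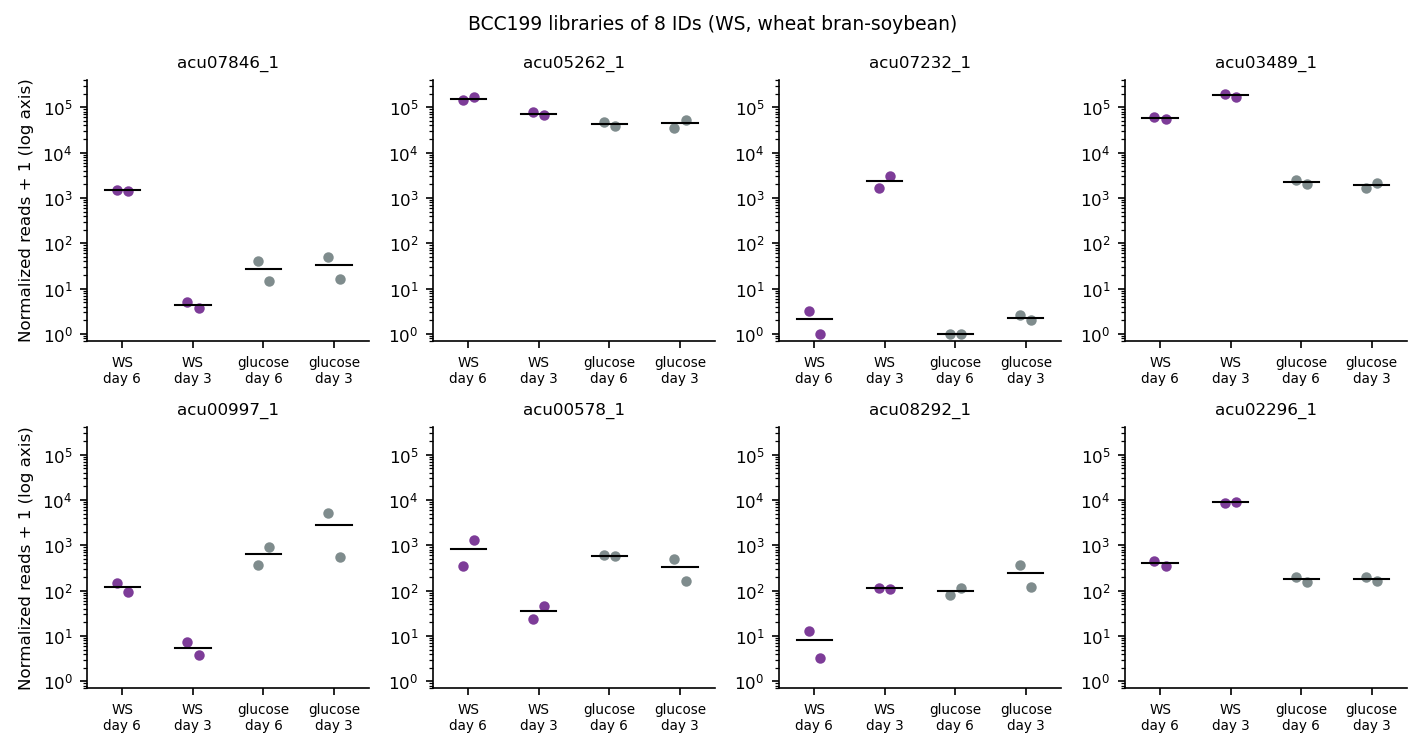
Normalized reads (log axis) of 8 IDs in the BCC199 libraries, with wheat bran-soybean (WS) day 6 and day 3 followed by glucose day 6 and day 3, and 1 point for each library. In wheat bran-soybean the points of the 2 days are apart for every ID drawn, because only IDs without overlap between the days were named. For acu07846_1 they lie at 1527 and 1454 on day 6, against 4.13 and 2.80 on day 3.

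Few IDs went between no reads and a sizeable level. In 37 IDs both day 6 libraries had reads and both day 3 libraries had 0, and 9 of the 33 of these that were tested rose. In 23 IDs both day 3 libraries had reads and both day 6 libraries had 0, and 3 of the 18 tested fell. The highest day 3 mean among these 23 was 16.2 normalized reads. Reads in all 4 libraries were found for 8224 IDs and in none of them for 93. With a mean of at least 100 normalized reads on one day and at most 6 reads in all on the other, 6 IDs were high on day 6 and 1, acu07232_1, was high on day 3.

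The IDs that rose took 11.4% and 12% of the reads of the day 6 libraries, against 4.71% and 4.81% of those of day 3. The IDs that fell took 2.71% and 2.46% on day 6, against 8.81% and 8.71% on day 3. These shares follow from how the 2 lists were made and are a description of their weight in the libraries. Libraries of other groups, which entered the choice only through the shared spread and the filter on low values, can be set beside them. In glucose the risen IDs took 10.9% and 10.7% of the reads of BCC199 on day 6 and 12.3% and 11.8% on day 3, close to their share in wheat bran-soybean on day 6. The fallen IDs took 2.14% and 2.13% in glucose on day 6 and 2.24% and 2.06% on day 3, again closest to wheat bran-soybean on day 6. The glucose libraries of the other strains also lay nearer to day 6 than to day 3 of BCC199 in wheat bran-soybean. For the risen IDs HUT2365 in glucose held 11.6% and 11.1% on day 6 and 10.8% in both libraries of day 3. BCC56535 in glucose held 11.2% and 10.4% on day 6 and 9.13% and 8.66% on day 3. The fallen IDs took between 2.64% and 2.77% in HUT2365 glucose libraries and between 2.94% and 3.73% in those of BCC56535.

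The BCC199 glucose levels were also compared ID by ID. The mean glucose level on day 6 lay closer on the log2 scale to the wheat bran-soybean mean of day 6 than to that of day 3 for 406 of the 682 risen IDs (59.5%) and 341 of the 466 fallen IDs (73.2%). With the glucose libraries of day 3 the counts were 414 (60.7%) and 348 (74.7%). The same count over all tested IDs is not given, so these shares have no background beside them. In wheat bran-soybean the median risen ID had 1059 normalized reads on day 6 and 346 on day 3, with 856 in glucose on day 6 and 1009 on day 3. For the median fallen ID these were 412 and 1363 in wheat bran-soybean, with 341 and 338 in glucose. Over all tested IDs the 4 medians lay between 836 and 894. The glucose level of a risen ID was outside the range of the 2 wheat bran-soybean days more often than between them, as 301 risen IDs were higher in glucose on day 6 than on either day and 161 were lower than on both. Of the fallen IDs 63 were above both days in glucose on day 6 and 266 were below both.

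**Figure D3:**
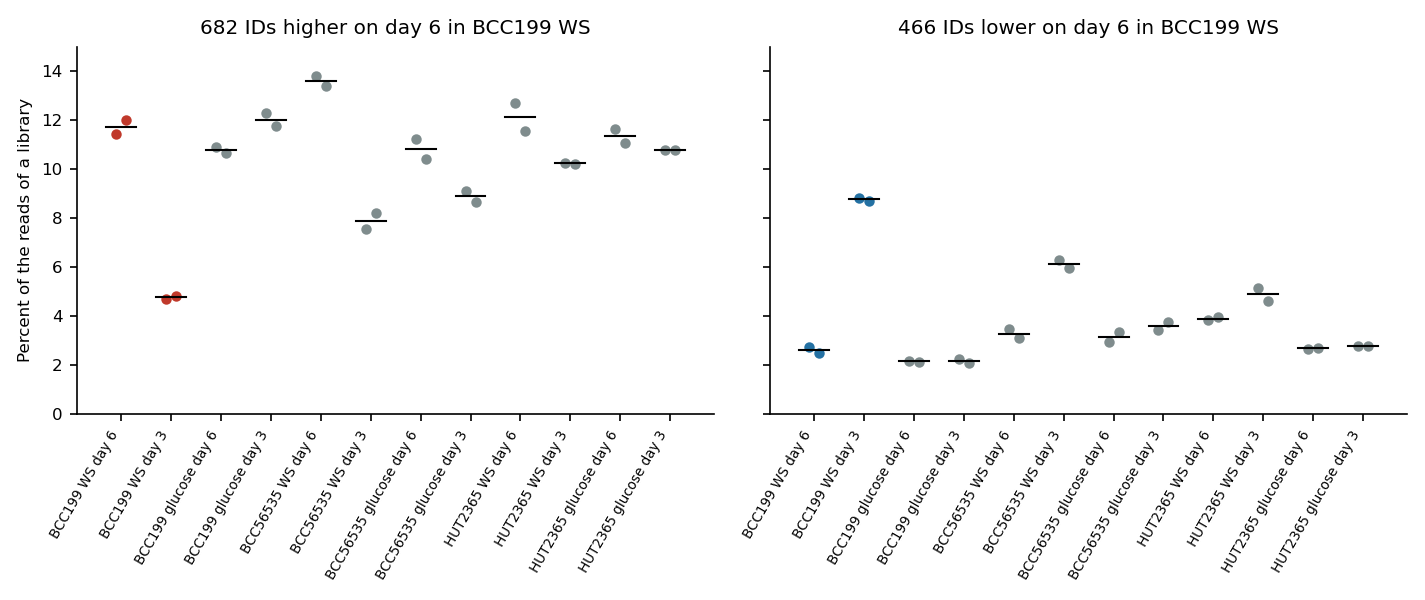
Percent of the reads of each library (1 point per library) taken by the 682 IDs that were higher and the 466 that were lower on day 6 in BCC199 in wheat bran-soybean (WS), with day 6 left of day 3 in each pair. BCC199 in glucose sits between 10.7% and 12.3% for the risen IDs and between 2.06% and 2.24% for the fallen ones, near the day 6 values in wheat bran-soybean. The glucose libraries of BCC56535 and HUT2365 also lie nearer to those day 6 values than to the day 3 values.

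The wheat bran-soybean libraries of the other strains showed smaller gaps for the same lists. The lists were chosen by the change in BCC199, so its larger gap follows in part from the choice and is a description. For the risen IDs, BCC56535 had 13.8% and 13.4% of its reads on day 6, against 7.54% and 8.22% on day 3. HUT2365 had 12.7% and 11.6% on day 6, against 10.3% and 10.2% on day 3. For the fallen IDs, BCC56535 had 3.45% and 3.09% on day 6, against 6.30% and 5.95% on day 3, and HUT2365 had 3.83% and 3.94% on day 6, against 5.16% and 4.61% on day 3. In both strains the libraries of the 2 days did not overlap and differed in the direction of BCC199.

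IDs that respond to the medium were looked at through lists made from medium contrasts of the other 2 strains. No BCC199 library enters these contrasts, but the fit shares 1 spread per ID over all groups. The BCC199 libraries thus had a part in which IDs passed. The same spread enters the BCC199 day calls, so the shares called in these lists are a description. In BCC56535 and HUT2365 alike, and on both days, 354 IDs were higher in wheat bran-soybean than in glucose. Of all IDs tested, the 2 media differed on day 3 for 49.8% in BCC56535 (24.2% higher and 25.6% lower in wheat bran-soybean) and 49.7% in HUT2365 (25.3% and 24.4%). On day 6 they differed for 44.4% in BCC56535 (22.4% and 22%) and 44.2% in HUT2365 (22% and 22.2%). In BCC199 51 of these rose between the days (14.4%) and 58 fell (16.4%), against 8.02% and 5.48% of all IDs tested. Their median log2 change was 0.03. With group weights 102 rose and 88 fell, and without 1 of the 4 BCC199 libraries 24 to 26 rose and 38 to 45 fell. Together they took 7.68% and 7.33% of the reads on day 6, against 9.47% and 9.24% on day 3, and the median ID had 1699 normalized reads on day 6 and 1704 on day 3. In BCC199 glucose libraries the median ID of this list had 441 normalized reads on day 6 and 527 on day 3. The same 2 strains gave 350 IDs that were lower in wheat bran-soybean, of which 41 rose (11.7%) and 20 fell (5.71%) in BCC199, with a median log2 change of -0.03. The 109 calls in the first list and 61 in the second were 62 to 71 and 26 to 36 without any 1 of the 4 BCC199 libraries. The second list took 2.38% and 2.34% of the reads on day 6, against 2.41% and 2.43% on day 3.

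Whether the change between the days differed between the strains was asked with the difference of day effects, taken as the log2 change of BCC199 minus that of another strain in the same medium. The strains share no library, and the fit shares only its estimate of the spread. Against BCC56535 the difference passed for 2058 IDs (24.2% of those tested), with 1146 (13.5%) more positive and 912 (10.7%) more negative in BCC199, and 3114 had an unadjusted p under 0.05 in limma. In 813 of the 1146 and 705 of the 912 the BCC199 day effect was not called. Only the BCC56535 day effect was called in 724 and 646 of them. Against HUT2365 the difference passed for 712 IDs (8.37%), with 420 (4.94%) more positive and 292 (3.43%) more negative. Here 160 of the 420 and 114 of the 292 had no BCC199 day call. Of the 682 IDs that rose in BCC199, 341 (50%) differed from BCC56535, with 314 of them more positive in BCC199, and 263 (38.6%) differed from HUT2365, with 260 of them more positive. Of the 466 that fell, 199 (42.7%) differed from BCC56535, with 180 of them more negative in BCC199, and 175 (37.6%) differed from HUT2365, each of them more negative. The BCC199 day effect that chose these IDs is 1 term of the difference, so the shares and directions follow in part from the choice and are a description. Among the risen IDs 150 had a change more positive than in both other strains, and among the fallen IDs 95 had one more negative than in both. The count against BCC56535 was 1252 to 1336 without any 1 of the 4 BCC199 libraries and 1338 without library B of BCC56535 on day 3. The count against HUT2365 was 283 to 366 without any 1 of the BCC199 libraries and 378 without library B of HUT2365 on day 6.

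The calls of the other strains can be set beside these. In BCC56535, 258 of the 682 risen IDs also rose and 95 fell, where 37.3% of all IDs tested were called, with 17.7% rising and 19.5% falling. The 258 shared IDs are 37.8% of the BCC199 list and 17.1% of the 1507 IDs that rose in BCC56535. Of the 466 fallen IDs 194 fell in BCC56535, which is 41.6% of the BCC199 list and 11.7% of the 1663 of BCC56535, while 47 rose there. In HUT2365, 100 of the risen IDs rose and 30 fell, where 8.77% of all IDs were called, with 4.07% rising and 4.7% falling. Of the fallen IDs 59 fell in HUT2365 and 16 rose. The median day effect of the risen IDs was 0.34 in BCC56535 and 0.23 in HUT2365 on the log2 scale, and that of the fallen IDs was -0.62 and -0.18. Across the 8509 IDs the day effect of BCC199 had a Pearson r of 0.27 and a Spearman rho of 0.16 with that of BCC56535, and 0.22 and 0.14 with that of HUT2365. These are correlations across IDs, which are not independent replicates.

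**Figure D4:**
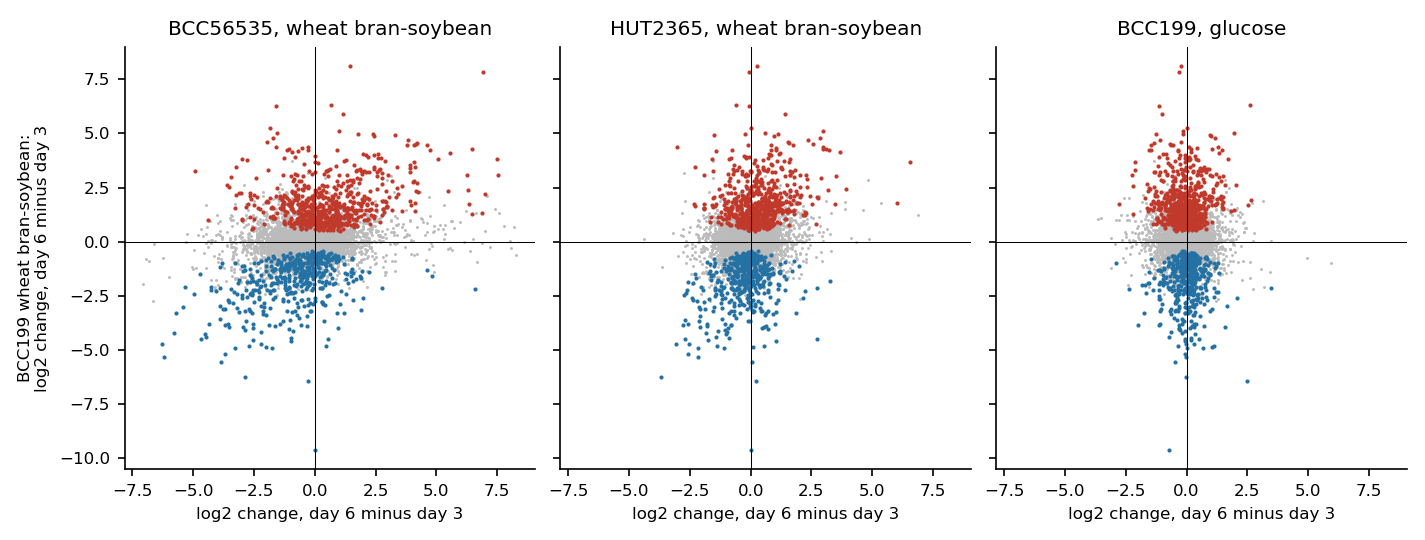
Log2 change between day 6 and day 3 of each tested ID in BCC199 in wheat bran-soybean, 1 point per ID. It is drawn against that in BCC56535 and in HUT2365 in the same medium and in BCC199 in glucose. Coloured are the 682 IDs that rose and the 466 that fell in BCC199 in wheat bran-soybean. The difference between day effects, which the colours do not mark, passed for 2058 IDs against BCC56535, 712 against HUT2365 and 883 against glucose.

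The largest differences from BCC56535 in the positive direction were those of acu00115_2 and acu07845_1. The first had 439 and 363 normalized reads on day 6, against 40.2 and 39.3 on day 3, a log2 change of 3.26 with a standard error of 1.03 (limma adjusted p 0.044). BCC56535 had 3.18 and 0.978 on day 6, against 70.1 and 188 on day 3, and the difference was 8.16 (standard error 1.45, limma adjusted p 0.00099). The BCC199 rise of acu00115_2 on its own was lost without any 1 of its 4 libraries (limma adjusted p 0.16 to 0.18). With all 4 it was lost with no filter (0.051), with quantile normalization (0.055), with a replicate block within strain and medium (0.058), with wheat bran-soybean libraries only (0.11) and with voom (0.13). The part of this ID before its suffix is shared with 1 other ID, and reads could have been split between them in counting. The second, acu07845_1, had 152 and 147 normalized reads on day 6 and 0 in both libraries of day 3, at least 50.8-fold higher on day 6 against a floor of 3 reads per library. In BCC56535 it had 3.18 and 36.2 on day 6, against 43.0 and 38.5 on day 3, and the difference was 7.85 (standard error 0.96, limma adjusted p 5.1e-05). HUT2365 held between 25.6 and 31.4 normalized reads of it over both days, and no other group set out here had 0 reads of it in both libraries.

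In the negative direction the largest differences from BCC56535, among IDs not named above, were those of acu02491_1 and acu00021_4. For acu02491_1 BCC199 had 212 and 318 normalized reads on day 6, against 1062 and 1284 on day 3, a log2 change of -2.16 (standard error 0.39, limma adjusted p 0.00099). BCC56535 had 3148 and 5390.1 on day 6, against 29 and 55.7 on day 3, and the difference was -8.77 (standard error 0.55, limma adjusted p 1.4e-07). This ID also fell in BCC199 in glucose, with 292 and 549 on day 6, against 2122 and 2041 on day 3 (log2 change -2.37, limma adjusted p 0.0056). For acu00021_4 BCC199 had 2047 and 2309 on day 6, against 6587 and 6559.6 on day 3, while BCC56535 had 117 and 95.9 on day 6, against 2.81 and 1.01 on day 3. The difference was -6.42 (standard error 0.57, limma adjusted p 2.0e-06). The levels of BCC199 were far above those of BCC56535 on both days, and the BCC199 fall on its own was lost without any 1 of its 4 libraries (limma adjusted p 0.063 to 0.093). The first part of acu00021_4 is shared with 3 other IDs.

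Among IDs not named above, the largest positive differences from HUT2365 were those of acu03520_1 and acu00217_2. The first had 704 and 1356 normalized reads on day 6, against 4.13 and 0.935 on day 3, a ratio of 416 with a 95% exact binomial interval from 178 to 1282. HUT2365 had 1.11 and 0.914 on day 6, against 0 and 2.99 on day 3, and the difference was 7.92 (standard error 1.10, limma adjusted p 0.00042). Under voom weights on the recovered reads that difference missed the threshold (adjusted p 0.18 in limma, the highest of 20 alternatives, whose lowest was 0.00028). BCC56535 rose as BCC199 did, with 937 and 177 on day 6, against 0.935 and 2.03 on day 3. In glucose BCC199 held between 30531 and 43352 normalized reads of acu03520_1, so its day 6 level in wheat bran-soybean was still far below the glucose level. The second, acu00217_2, had 914 and 1195 on day 6, against 39.2 and 59.8 on day 3, while HUT2365 had 1701 and 3545 on day 6, against 19602 and 20638 on day 3. The changes of the 2 strains had opposite signs, and the difference was 7.41 (standard error 1.14, limma adjusted p 0.00087). The first part of acu00217_2 is shared with 1 other ID.

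In the negative direction the largest differences from HUT2365, among IDs not named above, were those of acu07825_1 and acu01672_1. The first had 6.58 and 17.6 normalized reads on day 6, against 902 and 1336 on day 3, a log2 change of -6.41 (standard error 0.54, limma adjusted p 9.4e-07). The wheat bran-soybean libraries of HUT2365 and BCC56535 held at most 3 reads of acu07825_1 each, so the difference of -6.63 from HUT2365 (standard error 0.77, limma adjusted p 8.2e-05) rests on the level of BCC199 alone. For acu01672_1 BCC199 had 271 and 257 on day 6, against 6543 and 6131 on day 3. HUT2365 had 325 and 229 on day 6, against 54.7 and 311 on day 3, and the difference was -5.62 (standard error 0.72, limma adjusted p 0.00018). On day 6 the level of acu01672_1 in BCC199 lay between the 2 libraries of HUT2365, whereas on day 3 it lay far above both.

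The change between the days was also set against that of BCC199 in glucose, which asks whether it goes with the medium. In glucose 185 IDs were called (2.17% of those tested), 80 higher and 105 lower on day 6. The difference between the media passed for 883 IDs (10.4%), with 538 (6.32%) more positive and 345 (4.05%) more negative in wheat bran-soybean. Of the 682 risen IDs 375 (55.0%) had a day effect that differed from glucose, as had 242 (51.9%) of the 466 fallen IDs. These IDs were chosen by a day effect that is itself 1 term of the difference, so their share above that of all IDs, and its direction, follow in part from the choice and are a description. Of the risen IDs 11 also rose in glucose and 22 fell, where 0.94% and 1.23% of all IDs tested rose and fell in glucose. Of the fallen IDs 9 fell and 8 rose. The median day effect in glucose was -0.11 on the log2 scale for the risen IDs and 0.03 for the fallen ones. Across the 8509 IDs the 2 day effects had a Pearson r of -0.05 and a Spearman rho of -0.08. Without any 1 of the 4 wheat bran-soybean libraries the difference from glucose passed for 431 to 579 IDs, and without library A or B of glucose on day 6 for 540 and 505. A day effect that differed in the same direction from both strains and from glucose was found for 112 of the risen IDs and 69 of the fallen ones.

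Among IDs not named above, the largest positive differences from glucose were those of acu02333_1 and acu00691_1. The first had 4241 and 3002 normalized reads in wheat bran-soybean on day 6, against 51.6 and 66.4 on day 3, a log2 change of 5.88 (standard error 0.70, limma adjusted p 2.3e-05). In glucose it had 563 and 549 on day 6, against 1345 and 918 on day 3, and the difference was 6.88 (standard error 1.0, limma adjusted p 0.00030). On day 6 the wheat bran-soybean libraries were thus above the glucose libraries for acu02333_1, and on day 3 they were below. The second, acu00691_1, had 114 and 152 in wheat bran-soybean on day 6, against 4.13 and 0.935 on day 3, a ratio of 54.0 with a 95% exact binomial interval from 22.8 to 168. In glucose it had 787 and 513 on day 6, against 1304 and 1750.5 on day 3, and the difference was 6.23 (standard error 0.65, limma adjusted p 1.8e-05). For acu00691_1 the wheat bran-soybean libraries lay below the glucose libraries on both days.

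In the negative direction the largest differences from glucose, among IDs not named above, were those of acu07198_1 and acu00011_3. The first had 69.1 and 26.9 normalized reads in wheat bran-soybean on day 6, against 3659 and 3328 on day 3, a log2 change of -6.27 (standard error 0.61, limma adjusted p 3.2e-06). No BCC199 library in glucose held more than 7.20 normalized reads of it, and the difference was -6.25 (standard error 0.86, limma adjusted p 0.00021). It also fell in both other strains in wheat bran-soybean, with 38.2 and 50.9 on day 6, against 289.9 and 384 on day 3 in BCC56535, and with 73.4 and 41.1 on day 6, against 785 and 663 on day 3 in HUT2365. The second, acu00011_3, had 3990.1 and 3351 in wheat bran-soybean on day 6, against 109646 and 97791 on day 3, a log2 change of -4.82 (standard error 0.69, limma adjusted p 0.00015). In glucose acu00011_3 had 552 and 202 on day 6, against 74.8 and 315 on day 3, and the difference was -5.93 (standard error 0.98, limma adjusted p 0.00097). Among the wheat bran-soybean libraries of the other strains the highest held 348 normalized reads, below BCC199 in that medium on either day. The first part of its ID is shared with 6 others.

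**Figure D5:**
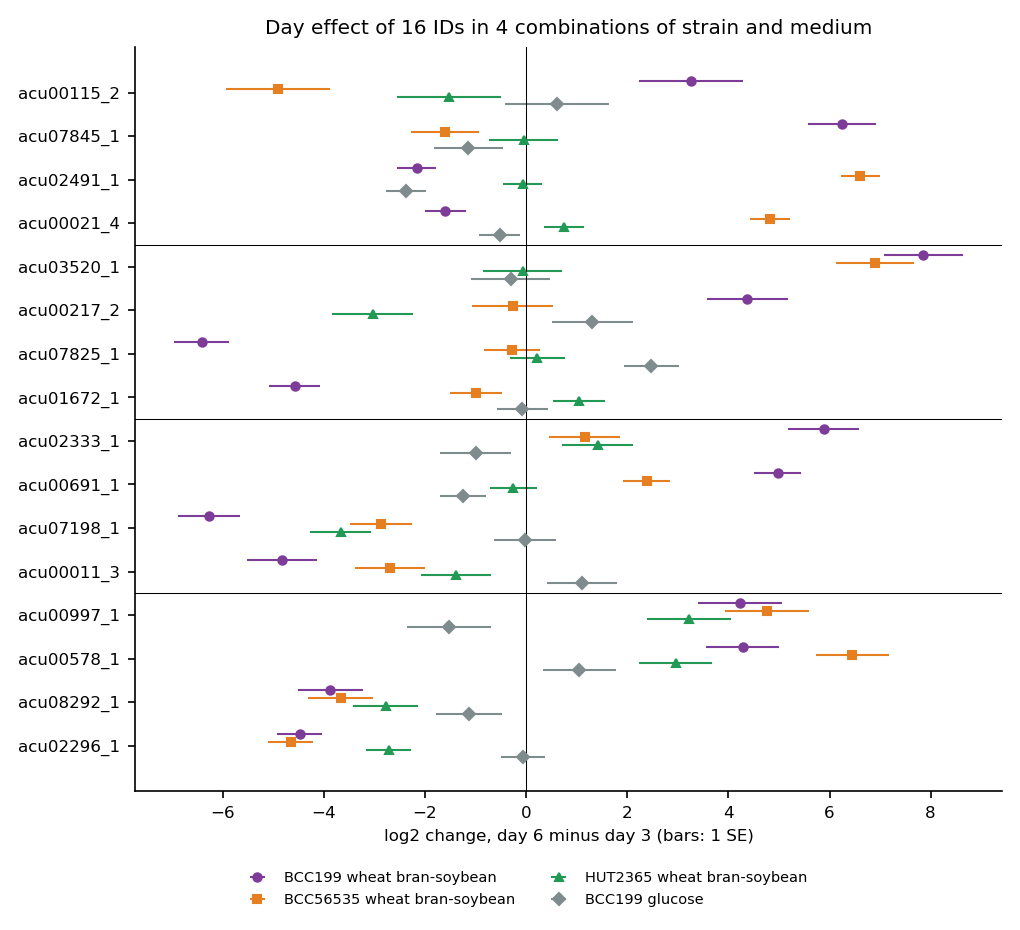
Log2 change between day 6 and day 3 (horizontal axis, bars 1 standard error) of named IDs in BCC199 in wheat bran-soybean, BCC56535 and HUT2365 in wheat bran-soybean and BCC199 in glucose, 1 row for each ID. For acu02491_1 BCC199 lies at -2.16 and BCC56535 at 6.61, and for acu02296_1 BCC199 lies at -4.48, BCC56535 at -4.65 and HUT2365 at -2.72.

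A called change of the same sign in all 3 strains was found for 58 IDs that rose, 8.50% of the risen IDs of BCC199, and 49 that fell, 10.5% of the fallen ones. Since the 3 calls define these lists, the changes in wheat bran-soybean are given without a test. The medians of the 58 were 1.79 in BCC199, 1.68 in BCC56535 and 1.38 in HUT2365 on the log2 scale, and those of the 49 were -2.24, -2.36 and -1.65. In BCC199 in glucose the medians were -0.21 and -0.07, and 1 ID of each list had the same call there. The difference from glucose passed for 46 of the 58 and 33 of the 49, beside 10.4% of all IDs tested. The choice of the lists fixes 1 term of that difference, so these counts are a description. Both lists together held 107 IDs, and 64 to 69 without any 1 of the 4 BCC199 libraries. Without library A or B of HUT2365 on day 6 they held 50 and 44. HUT2365 had 0 calls when fitted from its own 4 wheat bran-soybean libraries (limma, 1397 IDs at an unadjusted p under 0.05).

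Of the IDs that rose in all 3 strains, acu00997_1 had 149 and 90.1 normalized reads in BCC199 on day 6, against 6.19 and 2.80 on day 3 (log2 change 4.23, standard error 0.83, limma adjusted p 0.0022). In glucose it ranged from 368 to 5080.3 normalized reads, above every wheat bran-soybean library of BCC199. The other, acu00578_1, had 346 and 1281 on day 6, against 22.7 and 45.8 on day 3 (log2 change 4.28, standard error 0.72, limma adjusted p 0.00061). Its level was far higher in BCC56535, with 52289.8 and 84569 on day 6, against 1032 and 558 on day 3. Under voom weights the BCC199 rises of acu00997_1 and acu00578_1 missed the threshold, with adjusted p 0.24 and 0.051 in limma. These were the highest of 17 alternatives each, whose lowest were 6.4e-07 and 9.3e-07.

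Of the IDs that fell in all 3 strains, acu08292_1 had 12.1 and 2.34 normalized reads in BCC199 on day 6, against 116 and 108 on day 3 (log2 change -3.87, standard error 0.65, limma adjusted p 0.00056). HUT2365 held 302 and 331 on day 6, against 1631 and 2892 on day 3. The other, acu02296_1, had 439.7 and 353 in BCC199 on day 6, against 8726 and 8912 on day 3 (log2 change -4.48, standard error 0.44, limma adjusted p 3.5e-06). BCC56535 had 485 and 293 on day 6, against 17629.7 and 5159.9 on day 3, and HUT2365 had 295 and 387 on day 6, against 1446 and 3433 on day 3. In glucose BCC199 held between 152 and 198 normalized reads of acu02296_1 over both days. Its day 6 level in wheat bran-soybean stayed above every glucose library, though far nearer to them than its day 3 level. Fitted from its own 4 wheat bran-soybean libraries, HUT2365 lost its call for acu00997_1, acu00578_1, acu08292_1 and acu02296_1 (limma adjusted p 0.07 to 0.13), and without either day 6 library it lost its call for the first 3 of these (0.068 to 0.14).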

How the data were processed

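RNA was sequenced from mycelium of 3 strains of A. aculeatus in 2 media on 2 days, with 2 libraries in each of 12 groups, and 4 of the 24 libraries make the comparison described. Per the labels' protocols, ribosomal RNA was removed, messenger RNA was enriched, and NEBNext Ultra libraries were sequenced on a HiSeq2000. The tools listed, per the submitters' processing notes, are StringTie, Picard and HISAT2 2.1.0. Not given in the sources used here are what each did, the genome build, the annotation, how reads were counted and scaled, and whether strand was used, so reads shared by similar or overlapping genes could not be separated.

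The deposited values are a signal that is never negative, with a lowest value of 1. In every library the value minus 1 was a whole multiple of 1 step, within 0.02 of a step, for 100.0% of the 8615 IDs, so reads could be recovered. They came to between 19248977 and 30003709 per library. Normalized reads in the text are the deposited value minus 1.

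IDs that reached a deposited value of 10 in 2 or more libraries were kept (8509), which left out 106. Group means of the log2 deposited value plus 1 were fitted with limma 3.58.1 in R 4.3.3 over all 24 libraries, with 12 residual degrees of freedom, a trend of the spread with level, and two-sided p-values under Benjamini-Hochberg adjustment over all IDs tested, called under 0.05. The scripts were tested on simulated data. With 2 libraries against 2 an exact permutation test of 1 ID cannot go below 0.333, so the fit over all groups was used. Ratios against 1 to 6 reads have a 95% exact binomial interval, and bounds against 0 reads use 3 reads per library. Both cover counting error only.

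Named IDs had to pass the test, reach a mean of 100 normalized reads on the higher day, and have libraries that did not overlap between the days. Those with the largest changes or differences were taken, at most 2 in each direction of each comparison. IDs named for an earlier comparison were left out. The libraries compared, the lists and the naming rule were chosen with earlier results of these data known. Alternatives covered the pseudocount, the filter, the scaling, the libraries in the fit, weights, voom on the recovered reads, a block for the replicate letter, and leaving out each library.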

Additional observations from a re-analysis of the deposited data

Results flagged for a closer look

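Day effects of BCC199 in wheat bran-soybean that differed from those of another strain or of glucose were picked out by the test of the difference itself, in limma with Benjamini-Hochberg adjustment. The test passed for 2058 IDs against BCC56535, for 712 against HUT2365 and for 883 against BCC199 in glucose. In both directions most of the IDs that differed from BCC56535 had no BCC199 day call. Against BCC56535 the named differences in log2 change were 8.16 for acu00115_2, 7.85 for acu07845_1, -8.77 for acu02491_1 and -6.42 for acu00021_4. Against HUT2365 they were 7.92 for acu03520_1, 7.41 for acu00217_2, -6.63 for acu07825_1 and -5.62 for acu01672_1. Against glucose they were 6.88 for acu02333_1, 6.23 for acu00691_1, -6.25 for acu07198_1 and -5.93 for acu00011_3. No cause of these differences was tested. Each group has 2 libraries, too few to look for a library that stands apart within its group.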

How the results depend on the processing

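The 1148 day calls came to 3295 with only the 4 libraries compared and 3857 with group weights, and to between 561 and 641 when 1 of the 4 libraries was left out. The fit on the 4 libraries kept 1102 of the 1148 IDs and the fit with group weights kept all 1148. Over 13 alternatives with all 4 libraries 686 IDs stayed called, 410 higher and 276 lower, and over these and the 4 leave-outs together 414 did. The weights of day 6 and day 3 of BCC199 in wheat bran-soybean were 2.16 and 4.24, against 0.394 to 2.18 in the other groups.

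Against BCC56535, the 2058 differences came to 3107 with group weights and to between 1252 and 1837 when 1 library was left out. Quantile normalization gave 980 more positive and 1062 more negative in BCC199, so the share more positive was 48.0%, against 55.7% as deposited. Against HUT2365, leaving out 1 library gave between 283 and 688. Against glucose, the 883 came to 1395 with only the libraries compared, which are also the only BCC199 libraries, to 1566 with group weights, and to between 431 and 966 when 1 library was left out. The 107 IDs called alike in 3 strains came to 0 with only the libraries compared, where HUT2365 had 0 calls in limma and 1397 IDs at an unadjusted p under 0.05. They came to 53 with group weights and to between 44 and 104 when 1 library was left out. For the lists taken from the other strains, alternatives chosen after seeing the data gave 190 calls among the IDs higher in wheat bran-soybean with group weights and 62 to 71 when 1 library was left out. Among the lower ones they gave 155 with group weights, 39 with voom and 26 to 36 when 1 library was left out. The cause of these shifts was not tested, apart from the fewer libraries behind each leave-out. Where a group is left with 1 library, that library is assumed to vary like the other groups.

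The letters A and B carry no stated pairing. The difference between A and B on day 6 and that on day 3 had a correlation across IDs of -0.04 in BCC199 in wheat bran-soybean, and over the 6 pairs of groups it ran from -0.485 to 0.225. With a replicate block the counts were 1143 for the day effect, 2052 against BCC56535, 711 against HUT2365, 891 against glucose and 109 for the 3 strains. With a block within strain and medium they were 1070, 1951, 567, 827 and 113. For the named IDs, 370 alternatives kept the direction and the side of the threshold, 6 kept the direction only, and none turned the direction. For an ID named for a difference between day effects, they cover that difference alone. The BCC199 day calls of acu00115_2 and acu00021_4, which are outside these counts, were lost in some alternatives, as given above. For the 4 IDs named as called alike in 3 strains these alternatives cover the BCC199 day change alone. Their HUT2365 calls were lost more often, for acu00997_1 with pseudocount 10 (limma adjusted p 0.075), group weights (0.1) and voom (0.38) among others.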

Other observations

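Each ID ends in a suffix, and the part before it is called its prefix here. By this, 998 of the tested IDs share theirs with at least 1 other ID, while 7511 have a prefix of their own. Of the IDs that share a prefix 118 were higher and 80 lower on day 6 in BCC199 in wheat bran-soybean, which is 19.8% of them. Of the IDs with their own prefix 564 were higher and 386 lower, or 12.6%. The median level was 421 normalized reads for IDs that share a prefix and 940.1 for the others. In 26 prefixes at least 2 IDs were called. All called IDs were higher on day 6 in 13 of these prefixes, all were lower in 5, and both directions occurred in 8. What a shared prefix stands for is not known here, and reads could have been split between such IDs in counting.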
